A study of Mus musculus with 4 samples.

Results

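The genes described here encode the subunits, activators and assembly factors of the proteasome. They were taken as every protein-coding gene of the mouse annotation whose symbol begins with Psm, followed by a letter from a to g and a number. The annotation held 49 such genes, and 48 of them had at least 1 unique molecular identifier (UMI) in the count files, out of 22078 genes with a UMI in any file, 14179 of them protein-coding. By role, 8 formed the alpha ring, 7 the constitutive beta ring, 4 were inducible or tissue-restricted beta subunits, 9 belonged to the base and 8 to the lid of the regulatory particle, 5 encoded activators and 8 encoded assembly factors or an inhibitor.

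Drop-seq, which captures single cells in droplets and tags each mRNA molecule with a cell barcode and a UMI, was applied to dissociated renal cortex from 4 mice. The 2 Akita mice (C57BL/6-Ins2Akita/J, which carry a mutant insulin gene and become diabetic) were aged 116 and 119 days and the 2 Wild-type mice 45 and 51 days, so genotype and age cannot be told apart. The labels describe wild-type counterparts from the same supplier, give no sex or treatment, and state a housing period longer than any of these ages. Each library came from 1 kidney.

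The proteasome is the protease that degrades proteins tagged with ubiquitin. Its core particle is a barrel of alpha and beta rings, with the proteolytic sites on the inner beta rings, and the regulatory particle that caps it consists of a base of ATPases, which unfold substrates, and a lid, which removes ubiquitin. Interferon induces alternative catalytic beta subunits and an activator ring encoded by Psme1 and Psme2, and the transcription factor encoded by Nfe2l1 raises proteasome genes when proteolysis is impaired. In the kidney, proximal tubule cells reabsorb most filtered protein, whereas distal segments adjust salt and acid.

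Barcodes with at least 200 detected genes and at most 50% mitochondrial UMIs were kept as cells, 311 and 600 for Akita and 564 and 441 for wild type, carrying 557780 to 812747 UMIs per library. Akita replicate 2 had 884 barcodes in common with Wild-type replicate 1, present in 73% and 80.5% of their retained cells, so these 2 libraries were not independent, and the genotype and distal comparisons were repeated without the shared barcodes. The interaction and S3 comparisons further on were not. Levels are UMIs of a gene per 1000000 UMIs of the cells summed (CPM). Because UMIs count transcript ends, CPM is not divided by gene length. Cells were clustered without the proteasome genes. The proximal tubule-like cells expressed Kap and Slc34a1 (38897 and 3038 CPM), and the intercalated-like cells Atp6v1g3. Kap was also in 95.1% to 100% of the cells of each other tubule class, at 6752 to 7553 CPM. The connecting tubule-like cells expressed S100g and Klk1 (37382 and 48236 CPM). Their other connecting tubule markers were in 5.36% (Trpv5 and Scnn1g) to 82.1% (Calb1) of cells, and the distal convoluted tubule marker Slc12a3 in 67.9%. A further cluster carried markers of the loop of Henle (Umod, 2762 CPM) and the distal convoluted tubule (Slc12a3, 7203 CPM), and is called here the Umod and Slc12a3 cluster. Of its cells, 66.8% had Umod, 75.5% Egf, 58.2% Ppp1r1a and 35.1% Kcnj1. The other loop markers Slc12a1, Cldn10, Cldn16 and Cldn19 were in 11.5%, 5.77%, 0.481% and 0%. Distal convoluted tubule markers ranged from 7.69% (Tsc22d2) to 78.8% (Slc12a3).

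For 7 of the proteasome genes that differed between tubule segments in the results that follow, short sequences near the RefSeq transcription start (GRCm38.p6) are shown, because they hold the motif named for each. Psmd5, Psmd3, Psme2b and Psmb1, which also differed, are not shown. Capitals mark only the motif named for each gene, on the gene's own strand where it is read directly and as its reverse complement otherwise. The window of Psme1, an activator subunit, lies at chr14:55578493-55578522 on the plus strand, starts 1 base before the transcription start, and holds the core of the interferon-stimulated response element in reverse. That of Psme2, its partner, lies at chr14:55591151-55591180 on the minus strand and holds a GC box, GGGCGG, in reverse. That of Psma4, an alpha ring subunit, at chr9:54950768-54950797 on the plus strand, holds 3 overlapping GC boxes. That of Psmd9, a base assembly factor, at chr5:123228149-123228178 on the plus strand, holds the antioxidant response element core TGACNNNGC, the kind of site that Nfe2l1 and Nfe2l2 bind. Those of the ATPases Psmc1 (chr12:100110163-100110192) and Psmc6 (chr14:45329713-45329742) and of the lid subunit Psmd11 (chr11:80428593-80428622), all on the plus strand, hold the ETS core CCGGAAG, in reverse in Psmc1 and Psmd11. The windows of Psmd9, Psmc6 and Psmd11 also hold a GC box, which is not marked. By the GENCODE M21 annotation, the windows of Psme1, Psma4 and Psmc1 lie within exons of a transcript, and 8 bases of that of Psmd11 do.
Psme1: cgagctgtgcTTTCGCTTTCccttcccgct
Psme2: atactataagctCCGCCCttctcgagaggc
Psma4: tcCCGCCCCGCCCCGCCCcctcgcagtcct
Psmd9: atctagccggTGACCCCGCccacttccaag
Psmc1: tggtggatgcaCTTCCGGcggtggcgattt
Psmc6: aggcgggccagCCGGAAGgggcggagccag
Psmd11: cgagggcgggtCTTCCGGgtgtgtgtttcc

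The RefSeq promoter table, which spans 250 bases before to 50 bases after each start, held 41 of the 49 genes. Searched on both strands, CCGGAAG was present in 14 of these 41 promoters (34.1%), against 9.93% of the 27025 genes of the table. The core of the interferon-stimulated response element was present in 5 (12.2%, against 3.99%), in Psme1, Psmb3, Psmd4, Psmd9 and Psmg4, and GGGCGG in 23 (56.1%, against 38.2%). TGACNNNGC was present in 6 (14.6%, against 14%) and CCAAT in 14 (34.1%, against 41.1%). A match is a string of letters, and binding was not measured.

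**Figure D1:**
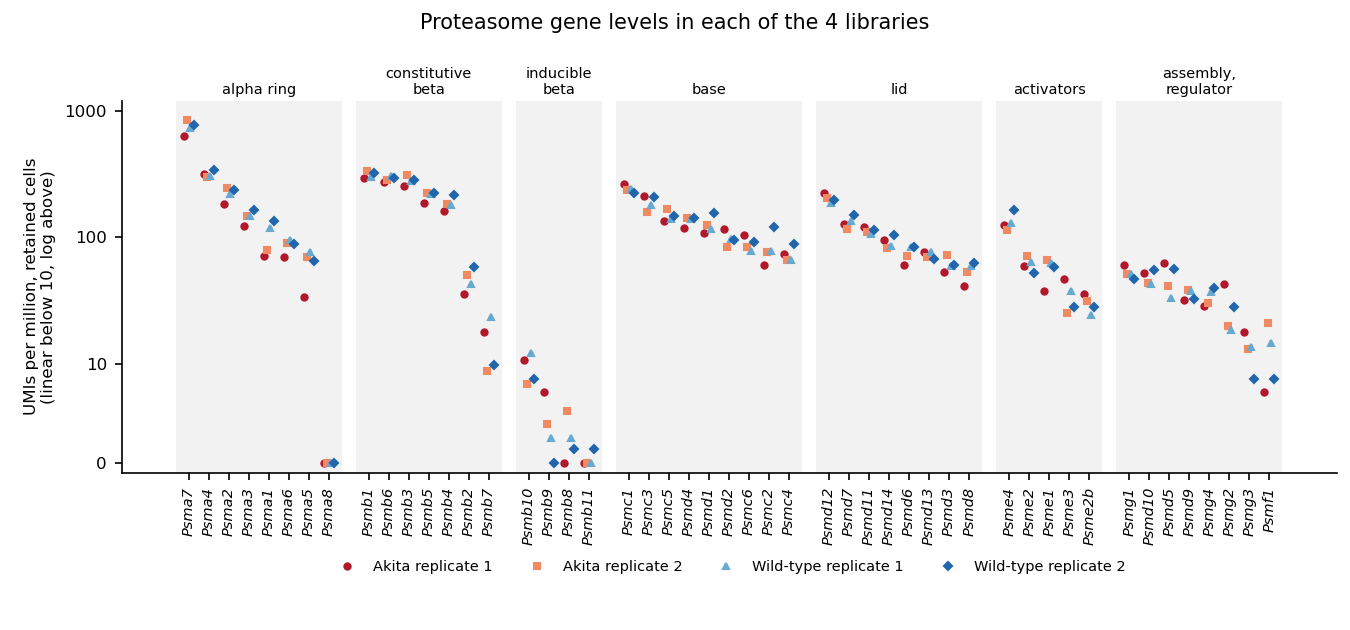
Level of each of the 49 proteasome genes in each library, in CPM of retained cells (axis linear below 10 and logarithmic above), ordered by level within each role. Psma7 stands highest in every library, the inducible beta genes lie near or below 10, and no UMI of Psma8 was found.

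Across the 4 libraries the proteasome genes together gave 15979 UMIs, 5630 ± 279 CPM (SD, n = 4). The alpha ring contributed 1684 ± 169 CPM, the constitutive beta ring 1348 ± 84.9, the base 1188 ± 63.1, the lid 803.5 ± 25.2, the activators 317 ± 13.1, and the assembly factors and inhibitor 273 ± 24.2. The inducible group gave 45 UMIs in all, 15.9 ± 3.1 CPM. The order of the 49 levels was much alike in all libraries, with Spearman's rho between 0.960 and 0.989 for the 6 pairs, a description across genes in which 1 pair shares cells.

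Transcripts of subunits that occur in equal copies in the same ring stood at unequal levels. Psma7, an alpha ring subunit, was measured at 638 and 846 CPM in Akita and 738 and 780 CPM in wild-type libraries. Psma4 followed at 319, 302, 308 and 341 CPM in the same order. Both genes overlapped between genotypes, and the lowest alpha ring gene with UMIs, Psma5, averaged 61.5 ± 18.8 CPM (SD, n = 4). Psma8, the germ cell alpha subunit, had no UMI in any file, which allows up to 3.69 to 5.38 CPM per library (3 UMIs).

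In the constitutive beta ring, Psmb1 was measured at 296, 332, 303 and 324 CPM and Psmb6, the caspase-like catalytic subunit, at 273, 285, 305 and 297 CPM, in the order Akita replicates 1 and 2, Wild-type replicates 1 and 2. Psmb5, the chymotrypsin-like subunit, averaged 215 ± 18.1 CPM. Psmb7, the trypsin-like subunit and the third catalytic one, averaged 15.1 ± 6.76 CPM (SD, n = 4), the lowest of the 7. Its gene overlaps the opposite-strand gene Nek6, which had 33 UMIs in all files. No strand setting is given in the sources used here, and the effect of this overlap on the count was not tested. The annotated processed copies Psmb6-ps2, Psmb6-ps, Psmb5-ps and Psmb7-ps2 had 79, 17, 9 and 0 UMIs in all files, and how the authors' counting divided reads between such copies and their parent genes was not tested.

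The inducible catalytic subunits, which replace the constitutive ones in the immunoproteasome, were scarce. Over all retained cells, Psmb10 was measured at 10.8, 7.94, 12.3 and 8.52 CPM, Psmb9 at 7.17, 3.97, 2.46 and 0 CPM, and Psmb8 at 0, 5.29, 2.46 and 1.42 CPM, each resting on at most 10 UMIs per library. Psmb11, the thymic subunit, had 1 UMI, in Wild-type replicate 2. Both Akita libraries lay above both wild-type libraries for Psmb9, but on 4 and 3 against 2 and 0 UMIs. With shared barcodes left out, Psmb9 had 4 and 0 against 0 and 0 UMIs. The genotypes overlapped for Psmb8 and Psmb10. None of these genes had enough UMIs to be tested. In the small macrophage or dendritic-like cluster, of 1, 8 and 4 cells in the 3 tubule units defined further on, Psmb9 had 5 UMIs, 610 CPM (exact Poisson 95% interval 198 to 1424, counting error only), and in proximal tubule-like cells 2 UMIs, 1.12 CPM (0.14 to 4.06), and 0 in distal cells. This cluster also held T or NK markers in 2 of 3 units (975 and 433 CPM) and B cell markers in the merged unit (3031 CPM). The T or NK values rested on 1 UMI each of Cd3e, Cd3g and Nkg7. The B cell value rested on 2, 5 and 7 UMIs of Cd79a, Ms4a1 and Igkc. No test was made of a cluster this small.

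Among the base genes, the ATPase Psmc1 was measured at 265, 236, 244 and 223 CPM and the ATPase Psmc3 at 213, 159, 181 and 210 CPM. In the lid, Psmd12 was measured at 224, 206, 186 and 197 CPM and Psmd7, the partner of the deubiquitinase Psmd14, at 127, 116, 134 and 149 CPM. For Psmd12 both Akita libraries lay above both wild-type libraries, and for Psmd7 both lay below. Psmc3 reads may include its opposite-strand neighbour Slc39a13, since no strand setting is given in the sources used here.

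Of the activators, Psme4, whose protein caps the core in the nucleus, was measured at 125, 114, 130 and 166 CPM, and Psme2 at 59.2, 71.5, 64.0 and 52.6 CPM. Of the assembly factors, Psmg1, a chaperone of the alpha ring, was measured at 61.0, 51.6, 51.7 and 46.9 CPM, and Psmd10, a chaperone of the base, at 52.0, 43.7, 43.1 and 55.4 CPM. Akita libraries lay below wild-type ones for Psme4 and overlapped them for the other 3 genes. All 8 assembly genes lay in a low band, with means from 12.9 to 52.8 CPM.

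**Figure D2:**
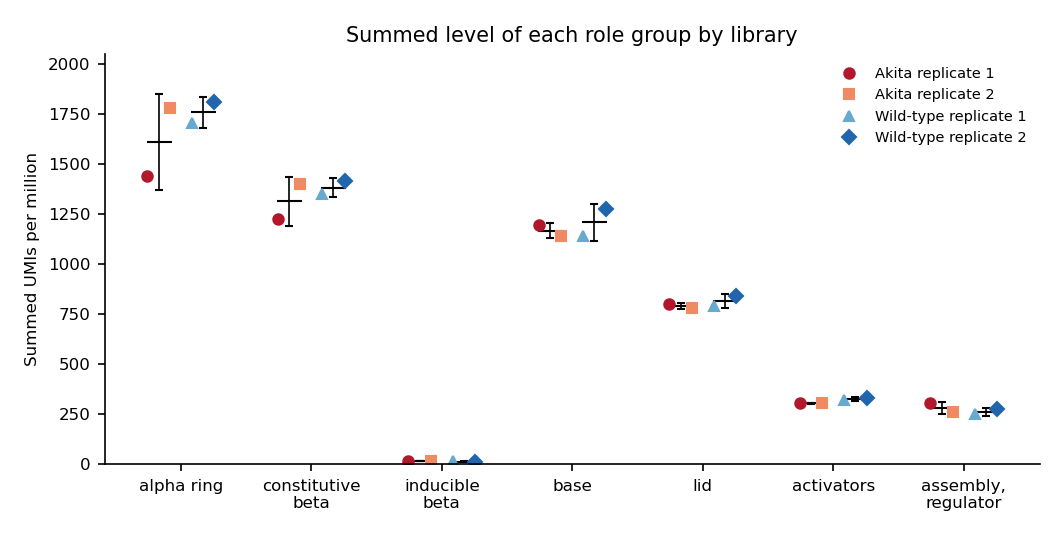
Summed level of each role group per library, in CPM of retained cells, with the mean and SD of each genotype (n = 2) as bars. The alpha ring and constitutive beta ring are lowest in Akita replicate 1 (1440 and 1228 CPM), while Akita replicate 2 lies within or near the wild-type values.

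The first comparison asked whether proteasome genes differ between Akita and wild-type cortex. None passed the test. Their summed level was 5291 and 5687 CPM in Akita and 5575 and 5966 CPM in wild-type libraries, 5489 ± 280 against 5770 ± 277 (SD, n = 2), a difference of −282 CPM that is about as large as the spread between libraries of 1 genotype. With the shared barcodes left out the difference was −277 CPM. The genotypes overlapped, and no test was made of the sum. In sums over all cells, fewer cells of a type and less RNA per cell cannot be told apart.

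With edgeR's quasi-likelihood test and Benjamini-Hochberg adjustment, 0 of 7169 genes (0%) and 0 of the 43 tested proteasome genes passed an adjusted p of 0.05. At an unadjusted p under 0.05 there were 68 genes (0.949%) and 1 proteasome gene, and DESeq2 and limma-voom also called 0. That share of genes is smaller than such a threshold gives when nothing differs, and 2 libraries of opposite genotype share cells. The absence of calls therefore does not show that the genotypes are alike. The median log2 fold change of the 43 was −0.08 (all genes 0.00), 18 being above 0 and 25 below. Both Akita libraries lay above both wild-type libraries for 2 of the 43, against 12.6% of all genes tested, and below them for 9 of the 43, against 11%.

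Psma1, an alpha ring subunit (chr7:114264606-114276118), had the smallest p. It had 40 and 60 UMIs in Akita and 97 and 95 UMIs in wild-type libraries, or 71.7 and 79.4 against 119 and 135 CPM. Both Akita libraries were below both wild-type libraries. The log2 fold change was −0.74 (SE 0.25, unadjusted p = 0.00890), which did not pass after adjustment (edgeR, adjusted p = 1.00), and the adjusted p ranged from 0.454 to 1.00 over the alternatives. With the shared barcodes left out, Psma1 had 4 and 8 UMIs in the 2 libraries concerned, and the log2 fold change was −1.0 (SE 0.46).

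The other genes with the smallest p among those below 0 were the ATPase Psmc2 (log2 fold change −0.51, SE 0.29) and Psme4 (−0.31, SE 0.23). Above 0 they were the assembly chaperone Psmg2 (0.38, SE 0.44), Psme2b (0.34, SE 0.37) and Psmd12 (0.16, SE 0.21). None passed. All 7 tested alpha ring genes had a value below 0 (median −0.18). Of these, 3 of 7 were below 0 without Akita replicate 1 (median 0.02) and 7 of 7 without Akita replicate 2 (median −0.42). In the first of these fits the only Akita library left shares most of its cells' barcodes with Wild-type replicate 1, so the 2 fits are not alike. With the shared barcodes left out 5 of 7 were below 0 (median −0.10), and likewise when they were kept in 1 file (median −0.09).

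**Figure D3:**
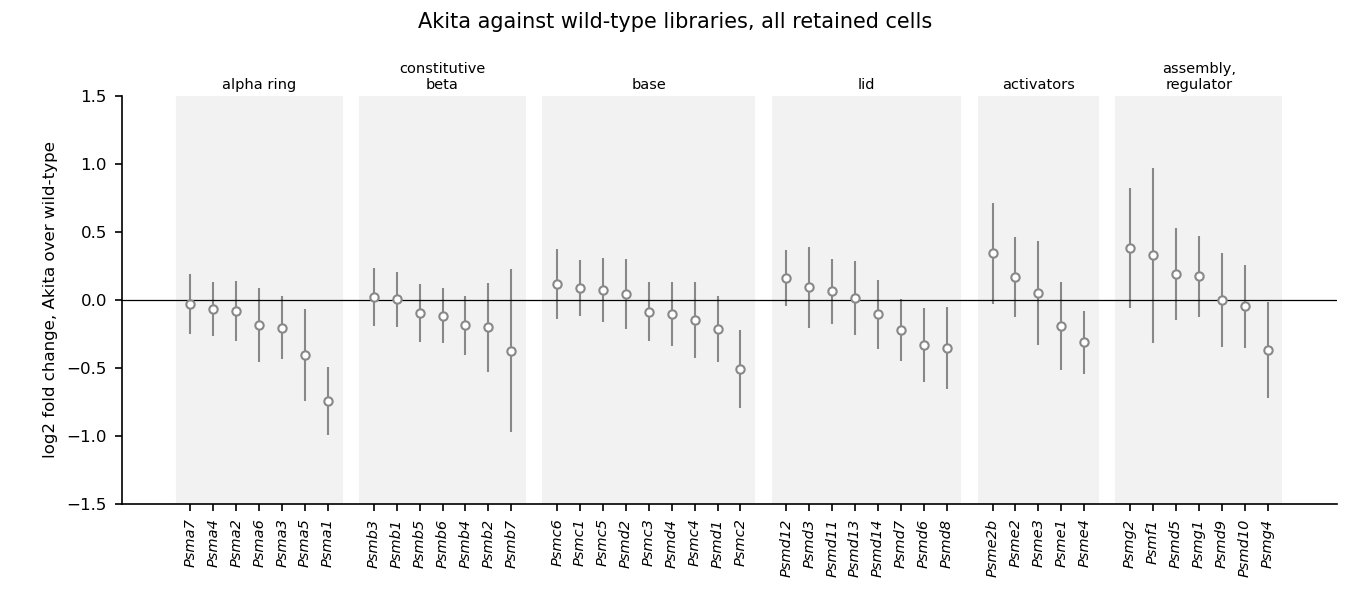
Log2 fold change of Akita over wild-type libraries in all retained cells for the 43 tested proteasome genes, by role (points; bars are the standard error, n = 2 libraries a genotype). No point is filled, since none passed an adjusted p of 0.05, and Psma1 at −0.74 lies farthest below 0.

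In the proximal tubule-like cells alone, no proteasome gene passed either. Of 6100 genes 0 passed (0%) and 56 had an unadjusted p under 0.05 (0.918%), again fewer than such a threshold gives when nothing differs. Of 42 tested proteasome genes 0 passed and 1 had an unadjusted p under 0.05. That gene was again Psma1, with 62.3 and 71.1 CPM in Akita against 119 and 140 CPM in wild-type libraries, without overlap (log2 fold change −0.94, SE 0.28, unadjusted p = 0.00355, edgeR adjusted p = 1.00). Both Akita libraries lay above both wild-type libraries for 2 of the 42, against 11.6% of all genes tested, and below them for 10 of the 42, against 11.4%. Below 0, Psmc2 (−0.59, SE 0.33) and the lid subunit Psmd8 (−0.46, SE 0.34) came next. Above 0 they were Psmd5 (0.34), Psmd11 (0.18) and Psmg1 (0.27). With the shared barcodes left out none passed, Psma1 was at −1.40, Psmd8 at −0.80 and Psmg1 at 0.71.

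The second comparison asked how proteasome genes differ along the nephron. Here 3 units were compared, in this order throughout: Akita replicate 1, the 2 libraries with shared barcodes merged so that each shared barcode counted once, and Wild-type replicate 2. In each unit, proximal tubule-like cells (245, 568 and 321 cells) were set against the sum of the distal classes, namely the Umod and Slc12a3 cluster (46, 99 and 63 cells), the intercalated-like cells (8, 35 and 38) and the connecting tubule-like cells (11, 30 and 15). The units mix genotypes and ages, and each serves as its own control in the fit.

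In distal cells 3 of 5 activator genes and 1 of 8 lid genes were higher, and 1 of 7 alpha ring genes, 2 of 9 base genes, 1 of 8 lid genes and 2 of 7 assembly factors were lower. Of 43 tested proteasome genes, 4 rose, against 13.7% of the 7125 genes tested, and 6 fell, against 16.7% of them. Their median log2 fold change was −0.17 (all genes −0.04). The summed level was 5252 ± 148 CPM in distal and 5685 ± 440 CPM in proximal tubule-like cells (SD, n = 3). The shares called are no larger than those of genes in general, so the counts alone are no result about the proteasome genes.

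**Figure D4:**
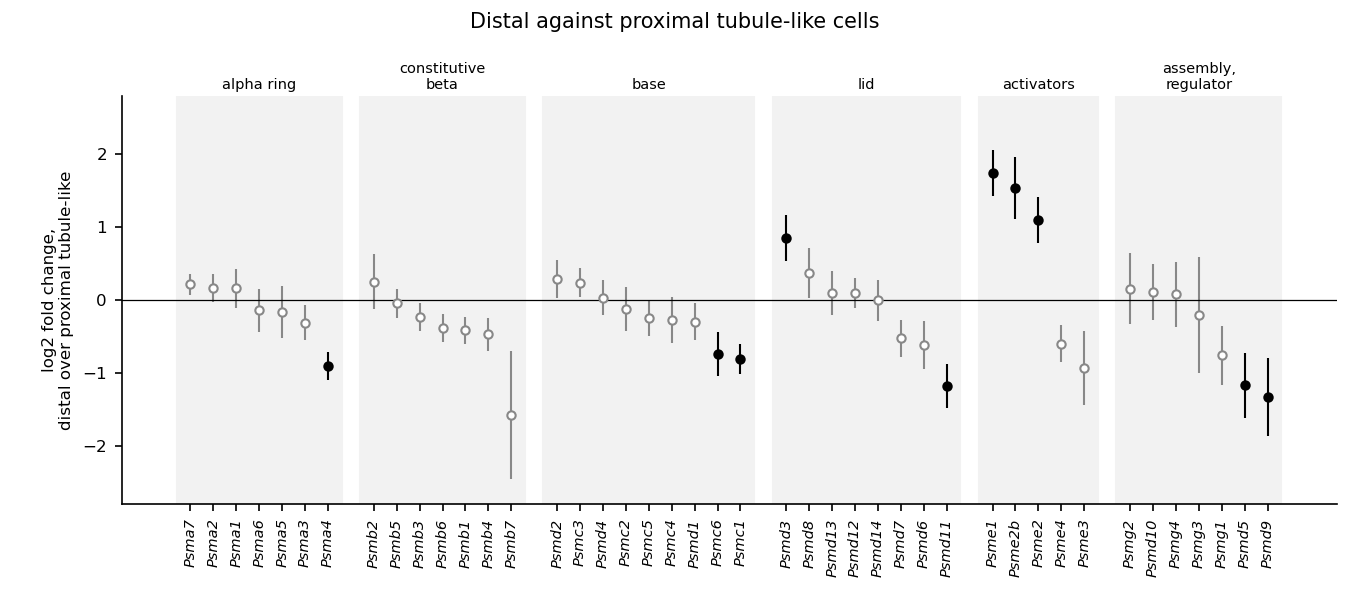
Log2 fold change of distal over proximal tubule-like cells for the 43 tested proteasome genes, by role (bars are the standard error, 3 units). Filled points passed an adjusted p of 0.05, and 3 of the 4 filled points above 0 are the activator genes Psme1, Psme2b and Psme2.

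Psme1 (chr14:55578123-55581529), which encodes the alpha subunit of the interferon-inducible activator ring, was measured at 105, 135 and 113 CPM in distal cells of Akita replicate 1, the merged unit and Wild-type replicate 2, on 13, 29 and 17 UMIs. In proximal tubule-like cells of the same units it was measured at 18.5, 40.2 and 43.5 CPM, on 8, 32 and 24 UMIs. Every distal value lay above every proximal value. The log2 fold change was 1.74 (SE 0.32, edgeR adjusted p = 7.75e-07, 3 of 3 units higher). With shared barcodes left out it was 1.46, and it no longer passed among cells of 500 to 2000 UMIs (1.18, adjusted p = 0.107) or without the Umod and Slc12a3 cluster (1.09, adjusted p = 0.254).

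Psme2 (chr14:55587441-55591113), the beta subunit of that ring and a near neighbour of Psme1, was measured at 113, 107 and 86.6 CPM in distal cells against 43.9, 52.7 and 41.7 CPM in proximal tubule-like cells. The units did not overlap, and the log2 fold change was 1.10 (SE 0.31, adjusted p = 0.00251). It did not pass with shared barcodes left out (0.86, adjusted p = 0.144) or in DESeq2 (1.10, adjusted p = 0.0992). Psme2b, a near-identical copy on another chromosome whose reads cannot be told apart from those of Psme2 with certainty, followed it at 97.0, 46.6 and 53.3 against 18.5, 22.6 and 20.0 CPM (log2 fold change 1.54, SE 0.43, adjusted p = 0.00172; 1.18 with adjusted p = 0.0682 without Akita replicate 1).

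The remaining activators did not share this direction. Psme3, the nuclear member of the family, had a log2 fold change of −0.93 (SE 0.51) and Psme4 one of −0.60 (SE 0.26), and neither passed (adjusted p = 0.164 and 0.0622). Psme1 overlaps the opposite-strand gene Emc9, which had 72 UMIs in all files. No strand setting is given, and how reads of the shared stretch were divided between these genes was not tested.

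Values of other cells beside this result were as follows. The summed level of 9 macrophage or dendritic markers was 13.3 to 74.5 CPM in distal and 27.2 to 41.4 CPM in proximal tubule-like cells, against 975 to 27876 CPM in the macrophage or dendritic-like cluster, the lowest being 1 UMI in the single cell of Akita replicate 1. Of these 9 markers, 5 had a UMI in distal and 6 in proximal tubule-like cells. Cd74 had 13 UMIs (38.6 CPM) in the Umod and Slc12a3 cluster, all in 0.481% of its cells, so this is no level of the cluster at large. It had 7 UMIs (3.93 CPM) in proximal tubule-like cells, while C1qa, C1qb and C1qc had 0 in every tubule class. B cell markers reached 32.6 CPM in distal and 2.51 CPM in proximal tubule-like cells, both in the merged unit. The 5 activators together were at 975, 1515 and 785 CPM in the macrophage or dendritic-like cluster, on 1, 7 and 2 UMIs, against 429, 396 and 393 CPM in distal and 268, 281 and 316 CPM in proximal tubule-like cells. The part of such cells in the activator result was not tested. Proximal tubule markers (18 genes) summed to 7263 to 12762 CPM in distal cells against 55857 to 66860 CPM in proximal tubule-like cells, and the part of transferred or free RNA in the differences was not tested. No doublet caller was run.

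Psmd3, a lid subunit, was the fourth gene to rise, with 88.9, 83.9 and 107 CPM in distal against 43.9, 55.2 and 49.0 CPM in proximal tubule-like cells, without overlap (log2 fold change 0.85, SE 0.32, adjusted p = 0.0275). It passed in 8 of 17 fits, and did not pass without Akita replicate 1 (0.82, adjusted p = 0.0691) or without Wild-type replicate 2 (0.80, adjusted p = 0.124).

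Among the genes that fell, Psma4 was measured at 226, 205 and 153 CPM in distal cells against 346, 344 and 392 CPM in proximal tubule-like cells, on 95 and 640 UMIs in all. All distal values were below all proximal values (log2 fold change −0.91, SE 0.19, edgeR adjusted p = 2.44e-05). Psma4 passed in all 17 fits, and the values ranged from −0.65 to −1.40. The other 6 tested alpha ring genes did not pass, and Psma7 was at 671, 899 and 886 CPM in distal against 630, 704 and 751 CPM in proximal tubule-like cells (0.21, SE 0.15).

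Psmc1, the ATPase with the highest level in the base, was measured at 137, 168 and 167 CPM in distal against 302, 286 and 238 CPM in proximal tubule-like cells, without overlap (log2 fold change −0.81, SE 0.21, adjusted p = 0.000624), and it too passed in all 17 fits. Psmc6, another ATPase, was measured at 72.8, 51.2 and 66.6 against 113, 96.7 and 99.8 CPM (−0.74, SE 0.31, adjusted p = 0.0498) and passed in 6 of 17, but in none of the 3 fits that left out a unit (adjusted p from 0.0972 to 0.312). The other 7 base genes did not pass, among them the ubiquitin receptor Psmd4 (0.03, SE 0.24).

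Psmd11, a lid subunit that bridges the lid and the core, was measured at 32.3, 60.6 and 73.3 CPM in distal against 148, 117 and 125 CPM in proximal tubule-like cells. The distal values were all lower (log2 fold change −1.18, SE 0.30, adjusted p = 0.000569), on 28 and 226 UMIs, and it passed in 16 of 17 fits. The assembly factors Psmd5 (16.2, 18.6 and 40.0 against 73.9, 40.2 and 59.9 CPM, log2 fold change −1.17, adjusted p = 0.0326) and Psmd9 (16.2, 18.6 and 13.3 against 36.9, 45.2 and 38.1 CPM, −1.33, adjusted p = 0.0430) were lower on 12 and 8 distal UMIs. They passed in 11 of 17 and 5 of 15 fits, and neither passed without Akita replicate 1 (adjusted p = 0.243 and 0.0782) or without the merged unit (0.131 and 0.213), and they overlap the opposite-strand genes Cutal and Hpd.

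None of the 7 constitutive beta genes passed, and 6 of the 7 had a value below 0 (median −0.38). The inducible beta genes had too few UMIs to be tested. Psmb10 had 10 UMIs in distal and 12 in proximal tubule-like cells, at 16.2, 23.3 and 20.0 against 9.24, 6.28 and 5.44 CPM, all distal values being higher, while Psmb8 and Psmb9 had 0 UMIs in distal and 4 and 2 in proximal tubule-like cells.

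**Figure D5:**
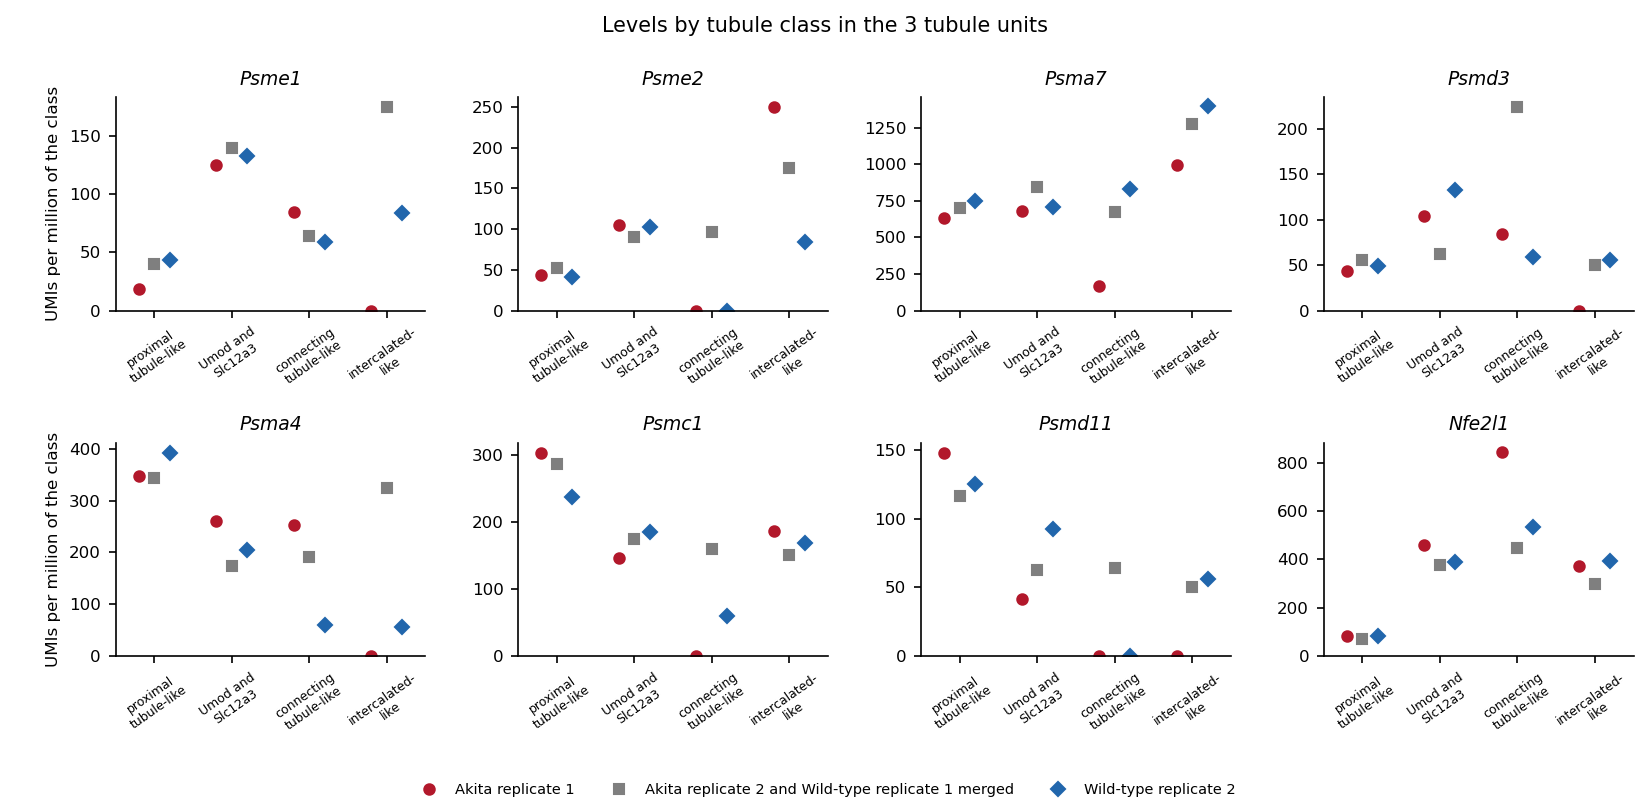
Level of 7 proteasome genes and of Nfe2l1 in each tubule class, in CPM of that class, with 1 point per unit. Psme1 and Psme2 stand higher in the Umod and Slc12a3 cluster than in proximal tubule-like cells in all 3 units, and Psma4 and Psmc1 stand lower.

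The Umod and Slc12a3 cluster was also set alone against proximal tubule-like cells. Of 43 proteasome genes, 3 rose, against 11% of 6786 genes, and 5 fell, against 15.8%. Psme1 was at 125, 140 and 133 CPM in this cluster (log2 fold change 1.91, SE 0.36, edgeR adjusted p = 4.17e-06) and passed in all 14 fits. Psme2 (1.04, adjusted p = 0.0219) and Psme2b (1.32, adjusted p = 0.0463) also rose, but neither passed without Akita replicate 1 (adjusted p = 0.120 and 0.408) or without Wild-type replicate 2 (0.0906 and 0.116). Psma4 (−0.81, adjusted p = 0.00114), Psmc1 (−0.73, adjusted p = 0.00854), Psmd11 (−0.99, adjusted p = 0.0166), Psmb1 (−0.58, adjusted p = 0.0267) and Psmd5 (−1.43, adjusted p = 0.0371) fell. Without the merged unit none of the 5 passed, without Akita replicate 1 only 1 of them did, and with shared barcodes left out none did. Psma4 was at 261, 174 and 205 CPM there, below the 3 proximal values. These 2 comparisons share the proximal tubule-like cells and most distal cells.

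The intercalated-like and connecting tubule-like cells had under 20 cells in at least 1 unit and were not tested. In intercalated-like cells Psma7 was at 997, 1274 and 1399 CPM, above the 630 to 751 CPM of proximal tubule-like cells in each unit. Psme2 was at 249, 175 and 83.9 CPM there, on 4, 7 and 3 UMIs, and Psme1 at 0, 175 and 83.9 CPM. In connecting tubule-like cells Psme1 was at 84.5, 63.9 and 59.3 CPM, on 1, 2 and 1 UMIs, and Psme2 at 0, 95.9 and 0 CPM. Summed over all proteasome genes, intercalated-like cells stood at 5699.5 ± 675 CPM and connecting tubule-like cells at 4479 ± 506 CPM (SD, n = 3).

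Other genes of the pathway moved in both directions between distal and proximal tubule-like cells. Of 3 tested regulators of proteasome genes, 2 rose and 1 fell. Nfe2l1, the activator of proteasome transcription, was at 485, 373 and 406 CPM in distal against 83.1, 72.8 and 83.4 CPM in proximal tubule-like cells (log2 fold change 2.36, SE 0.20, edgeR adjusted p = 2.29e-26). The distal values of Nfe2l1 were all above the proximal ones. Nfe2l2, the regulator of the antioxidant response, rose too (1.22, SE 0.25), most in Akita replicate 1 (348, 126 and 127 CPM in distal against 71.6, 67.8 and 92.5 CPM in proximal tubule-like cells), and their binding partner Mafg fell (−1.31, SE 0.28).

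Of 9 tested partners of the proteasome, Sem1, a small lid subunit, rose (0.48, SE 0.18), and the ubiquitin receptor Adrm1 (−0.87, SE 0.31) and the ubiquitin ligase Ube3c (−2.42, SE 0.93, on 2 distal UMIs) fell. None of 10 substrate delivery genes passed, and all 10 had a value below 0 (median −0.36). Of 6 genes of antigen presentation by class I molecules, H2-K1 (1.15, SE 0.22) and Tapbp (1.39, SE 0.46) rose and B2m (−0.84, SE 0.26), the light chain, fell. The other heavy chain gene tested, H2-D1, did not pass (0.38, SE 0.22, edgeR adjusted p = 0.198).

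The difference between distal and proximal tubule-like cells was also compared between genotypes, on the 4 files as deposited. The interaction passed for 0 of 7782 genes and 0 of 44 proteasome genes in edgeR, 1 of them at an unadjusted p under 0.05. No other tool was run for this comparison.

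Within the proximal tubule, clusters with markers of the S3 segment (27, 109 and 55 cells) were set against those with markers of S1 (54, 124 and 36 cells). Of 21 tested proteasome genes 0 passed and 3 had an unadjusted p under 0.05 (edgeR), against 22.3% of the genes tested, whereas 6.65% of 1580 genes rose and 5.32% fell. Psma2 came nearest, at 66.0, 249 and 318 CPM in S3-like against 128, 116 and 94.6 CPM in S1-like cells, with Akita replicate 1 going the other way on 1 UMI (log2 fold change 1.13, SE 0.47, adjusted p = 0.0965). Without Akita replicate 1 it passed (1.44, adjusted p = 0.0390). Psma2 overlaps the same-strand gene AW209491, which had 74 UMIs in all files, and the effect of this overlap on the count was not tested. Psmb5 (1.14, SE 0.57) and Psmb3 (0.86, SE 0.42) came next above 0, and Psmd2 (−1.38, SE 0.79), Psmd4 (−0.52, SE 0.51) and Psme4 (−0.44, SE 0.51) below it. The leading gene of the S3-like cells was the haemoglobin gene Hbb-bs, whose part in these values was not tested.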

How the data were processed

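Single-cell mRNA of renal cortex was measured in 4 libraries. The authors deposited raw UMI counts per gene and barcode, without normalization, made on the GRCm38 build with featureCounts 1.6.0, STAR 2.5.2b and UMI-tools 0.5.3 per the submitters' processing notes. The files held 1016719 to 1303453 UMIs each, of which 1.08% to 1.33% were on strings that are no barcode and were left out.

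Cells were clustered with scanpy 1.11.5 and leidenalg 0.10.2 (10000 counts per cell, 2000 variable genes, 30 principal components, 15 neighbours, resolution 1) and named from markers, at least 3 among the top 50 genes. A planned loop of Henle-like class was replaced by the Umod and Slc12a3 cluster. Counts were summed per library or unit and tested with edgeR 4.0.16 (TMM, quasi-likelihood, two-sided, Benjamini-Hochberg over all genes tested, threshold 0.05; filterByExpr between genotypes, at least 30 UMIs between classes, classes of at least 20 cells in every unit). DESeq2 1.42.0, limma 3.58.1, other filters, scalings, cell sets and left-out libraries were alternatives. The test was also run on simulated data of independent libraries without shared cells, so that run does not cover the sharing of barcodes. Between genotypes, p-values measure the spread between these 4 libraries, of which 2 share cells. Between classes, they measure the spread of the class difference over the 3 units. The deviations of same-numbered libraries from their group means had r = −0.14. Akita replicate 2 and Wild-type replicate 1, which share cells, enter this value with opposite signs, so it cannot decide on pairing. The numbers were not taken as pairs. Sequences are from RefSeq and gene spans from GENCODE M21.

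Members and lists were chosen with earlier results of these data known. Named genes were the 2 highest of each role, those that passed, the 3 with the smallest p in each direction and comparison, and the inducible or tissue-restricted subunits. Psme3, Psma5, Psmb7, the 7 sequences shown and the genes outside the proteasome were named after their values were seen. Some results on genes outside the proteasome are not reported here.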

Additional observations from a re-analysis of the deposited data

How the results depend on the processing

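Between genotypes, no proteasome gene passed under any alternative run. Among all genes tested the count was 0, but 1 without a filter on low counts (1 in proximal tubule-like cells) and 0 to 23 with each library left out (0 to 14 in proximal tubule-like cells). The replicate block gave 0 calls, and the crossed replicate block, chosen after seeing the data, also gave 0. The difference in summed level ranged from −256 to −455 CPM. Psmg2 turned to −0.18 without Akita replicate 1, and ranged from −0.18 to 0.82 with each library left out. Psmd11 in proximal tubule-like cells turned to −0.064 when a shared barcode was kept in 1 file only. The cause of these changes was not tested.

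For distal against proximal tubule-like cells, the 4 genes that rose became 2 with shared barcodes left out, 1 in DESeq2, 0 without the Umod and Slc12a3 cluster and 1 among cells of 500 to 2000 UMIs (the last 2 chosen after seeing the data), and 2 to 4 with each unit left out. The 6 that fell became 12 on the files as deposited, 11 at a minimum of 10 UMIs, 3 in DESeq2, 2 among cells of 500 to 2000 UMIs and 3 to 5 with each unit left out. For the Umod and Slc12a3 cluster, the 3 that rose became 1 when a shared barcode was kept in 1 file only, 1 at a minimum of 10 UMIs, 1 in DESeq2 and 1 to 4 with each unit left out. The 5 that fell became 9 on the files as deposited, 0 with shared barcodes left out, 1 in DESeq2 and 0 to 4 with each unit left out. Between S3-like and S1-like cells, 0 to 1 rose with each unit left out. No class or segment comparison had replicate numbers to pair. Psmd9 rested on 8 distal UMIs.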
